A study of Mus musculus with 6 samples.

Results

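The 10 genes described here encode Smad proteins and the proteins that anchor or degrade them, *Smad1* to *Smad7*, *Smurf1*, *Smurf2* and *Zfyve9*. They were chosen by name, with earlier results of these data known, and all 10 have a row among the 12125 genes of the deposited table. RNA was sequenced from 500 sorted kidney cells per library, with 3 libraries from Trf1+/+; Col1a2-CreERT2 mice and 3 from Trf1flox/flox; Col1a2-CreERT2 mice, hereafter Trf1+/+ and Trf1flox/flox. Mice of both genotypes carried the tamoxifen-inducible Cre driven by the *Col1a2* promoter and a reporter allele of the Katushka fluorescent protein (KFP) that Cre switches on. The study used mice of both sexes, and the paper does not give the sex behind each library. Both genotypes received tamoxifen 3 times a week for 8 weeks from an age of 6 to 8 weeks, so the controls shared the drug, the Cre and the reporter and differed in lacking the loxP sites at *Trf1* (listed as *Terf1*), which encodes a telomere-binding protein. Cells were stained for CD29, an integrin chain, and for KFP before sorting, and which of the sorted fractions was sequenced is not given in the sources used here.

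Smads carry signals of the TGF-β family from the cell surface to the nucleus. Ligand-bound receptors phosphorylate the receptor-regulated Smads, SMAD2 and SMAD3 for TGF-β and activin and SMAD1 and SMAD5 for bone morphogenetic proteins (BMPs), which then join the common partner SMAD4 and bind DNA. The inhibitory SMAD6 and SMAD7 block this at the receptors and are themselves induced by the pathway, the ligases SMURF1 and SMURF2 mark Smads and receptors for degradation, and ZFYVE9 (also called SARA) holds SMAD2 and SMAD3 near the receptor. In the kidney, TGF-β signaling through SMAD3 is known for driving matrix production in fibrosis, and SMAD7 for opposing it.

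The end of the coding sequence separates the receptor-regulated Smads from the inhibitory ones, because it holds the serines that the receptors phosphorylate. The last 30 coding bases before the stop codon are shown for 4 members, from the longest coding transcript of each gene in GENCODE M21, with the serine codons in capitals.

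Smad1: TCAccccacaatcctattTCATCCgtgTCT

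Smad3: TCCccgAGCatccgctgtTCCAGTgtgTCT

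Smad5: TCTccgctgaaccccattTCTTCTgttTCA

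Smad6: tggctggagatcctactcaacaaccacaga

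Of the last 4 codons, 3 encode serine in *Smad1* (465 codons), *Smad3* (425 codons) and *Smad5* (465 codons). None of the last 10 codons of *Smad6* (495 codons) does.

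Inhibitory Smads are also target genes, so the promoters at hand were read for Smad motifs. RefSeq promoter windows on GRCm38.p6 (250 bases before to 50 after a transcription start) were used for 7 of the 10 genes, in 9 windows, and those of *Smad2*, *Smad4* and *Smad7* were not analysed here. The palindrome GTCTAGAC, a sequence that SMAD3 and SMAD4 bind, is in 0.213% of the 32851 promoter windows of all genes, and among these 7 genes the *Smad6* window holds 1 copy, beginning at position -4 from the start. The windows of *Smad1*, *Smad3*, *Smad5*, *Smurf1*, *Smurf2* and *Zfyve9* hold none. The shorter motif CAGAC, searched on both strands and not contained in the palindrome, is in 49.6% of all windows, in the windows of *Smurf1* and *Smurf2* (2 copies each) and in 1 of the 3 *Smad5* windows (1 copy). *Smad6* and its neighbor *Smad3*, which lie 195 kb apart on chromosome 9 with no listed gene between them, are shown with the palindrome in capitals, from 250 bases before to 30 bases after the start on the minus strand.

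Smad6 (GRCm38.p6, chr9:64022030-64022309): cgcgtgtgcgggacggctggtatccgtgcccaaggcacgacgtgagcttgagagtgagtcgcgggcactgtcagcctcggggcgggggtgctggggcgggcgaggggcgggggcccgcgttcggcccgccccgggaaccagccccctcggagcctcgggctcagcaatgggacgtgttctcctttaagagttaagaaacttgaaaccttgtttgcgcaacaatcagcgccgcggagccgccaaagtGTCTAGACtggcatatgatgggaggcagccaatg

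Smad3 (GRCm38.p6, chr9:63757965-63758244): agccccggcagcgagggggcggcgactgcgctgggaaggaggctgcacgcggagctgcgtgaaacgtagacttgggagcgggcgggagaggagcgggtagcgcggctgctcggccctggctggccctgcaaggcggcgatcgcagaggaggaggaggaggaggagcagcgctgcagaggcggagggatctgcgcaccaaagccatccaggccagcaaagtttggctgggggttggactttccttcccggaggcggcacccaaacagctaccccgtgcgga

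Values are normalized counts, the reads of a gene divided by a size factor of its library, and the reads behind them were recovered. The libraries held 10263382 to 12248797 reads on the listed genes, 1 read was worth 0.689 to 1.09 normalized counts, and the floor was set at 3 reads in a library, for counting error only. The library labelled Trf1+/+ replicate 1 stood apart, with 43.8% of all listed genes at or under the floor against 8.37% to 29.8% in the other 5. For *Terf1*, the library labelled Trf1+/+ replicate 1 gave 0.891 normalized counts (1 read), which goes against its label, and the other controls 253 and 235, against 110.0, 7.65 and 12.4 in the libraries labelled Trf1flox/flox. The 110.0 of Trf1flox/flox replicate 1 also lay far above the other Trf1flox/flox values, so *Terf1* did not separate the labels. In a library with so many genes at the floor, 1 read does not show that the label is wrong. The *Terf1* values cover the whole gene, reads from outside the loxP sites included, and the genotype names used below are those of the labels. Of 18 fibroblast markers 3 are listed, and *Col1a2*, whose promoter drives the Cre, had at most 1.78 normalized counts (2 reads) in any library. The summed level of 14 proximal tubule markers was 25025 to 110700 in Trf1+/+ and 24692 to 137812 in Trf1flox/flox libraries, and that of 12 loop, distal tubule and collecting duct markers was 75122 to 127267 and 57110 to 156993. The cells are therefore called kidney cells here, the label of fibroblasts not being borne out by these genes, and the part of the cell makeup in the results was not tested. In such bulk samples, fewer cells of a type and less RNA per cell cannot be told apart.

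*Smad2* and *Smad7* were the 2 members for which each Trf1flox/flox library lay above each Trf1+/+ library. The other 8 overlapped between the genotypes. Over the 9966 genes that reached 10 normalized counts in 3 or more libraries, the groups did not overlap in either direction for 8.68% and lay higher in Trf1flox/flox for 5.35%. Differences were taken on the log2(normalized count + 1) scale, as Trf1flox/flox minus Trf1+/+, and tested with limma over these 9966 genes. *Smad3*, *Smad6* and *Smurf1* did not reach the filter, and no count over the other 7 stands for all members, since a gene high in a single genotype can pass. No gene of the 9966 (0%) and hence no member had an adjusted p under 0.05 in limma. At an unadjusted p under 0.05 limma placed 454 genes (4.56%), 353 of them higher in Trf1flox/flox (3.54%), and among these were *Smad2* and *Smad7*. The edgeR test on the recovered reads placed 0 genes under an adjusted p of 0.05 and 196 under an unadjusted one, and DESeq2 placed 58 and 410, with no member among the 58.

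**Figure D1:**
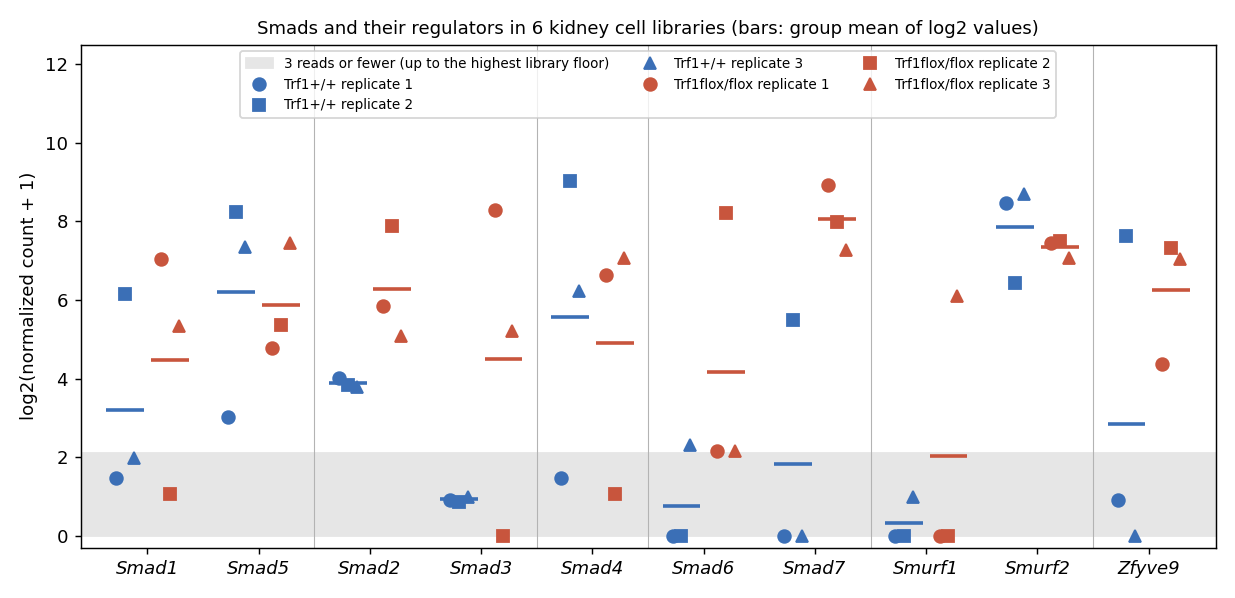
Normalized counts of the 10 genes on the log2(normalized count + 1) scale, by gene and genotype, with 1 point per library, the replicate given by the symbol, bars at the group mean of the log2 values and the gray band covering 3 reads or fewer. All 3 Trf1flox/flox points lie above all 3 Trf1+/+ points for *Smad2* and *Smad7*, and the other 8 genes overlap.

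Among the receptor-regulated Smads of the TGF-β branch, *Smad2* (ENSMUSG00000024563, GRCm38 chromosome 18, 76241580 to 76310963) had 15.1, 13.3 and 12.8 normalized counts in Trf1+/+ replicates 1, 2 and 3 and 56.7, 237 and 33.1 in Trf1flox/flox replicates 1, 2 and 3. The Trf1+/+ libraries lay close together and low, with 17, 16 and 13 reads, while the Trf1flox/flox libraries spread widely above them. Trf1+/+ averaged 13.7 ± 1.24 (SD, n = 3) and Trf1flox/flox 109 ± 112 (SD, n = 3). The log2 fold change was 2.40 (standard error 0.98, 95% interval 0.0046 to 4.80). Its unadjusted p in limma was 0.0497 and its adjusted p 0.996. By exact permutation (two-sided) p was 0.1, the smallest that 3 against 3 allow. When limma's prior variance followed the mean level, where 3.13% of all genes had an unadjusted p under 0.05, the standard error of *Smad2* was 2.20 and its unadjusted limma p was 0.298. Without the library labelled Trf1+/+ replicate 1 the log2 fold change was 2.47, with an unadjusted limma p of 0.0718.

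*Smad3* (ENSMUSG00000032402, chromosome 9, 63646767 to 63757994), the main carrier of TGF-β signals to matrix genes, had 1 read in each Trf1+/+ library (0.891, 0.829 and 0.985 normalized counts) and 314, 0 and 35.8 normalized counts in the Trf1flox/flox libraries. It was thus at the floor in 4 of 6 libraries, and the libraries above it were Trf1flox/flox replicate 1, with 365 reads, and replicate 3, with 52. The exact two-sided permutation p was 0.4, and at this depth Trf1flox/flox replicate 2 could not be told from the controls. Of the TGF-β branch, replicate 2 therefore held *Smad2* at its highest value and no *Smad3* read.

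In the BMP branch, *Smad1* (ENSMUSG00000031681, chromosome 8, 79338395 to 79399518) had 1.78, 70.4 and 2.96 normalized counts in Trf1+/+ against 131, 1.09 and 39.3 in Trf1flox/flox libraries. Of these, 3 libraries were at the floor, 2 Trf1+/+ and 1 Trf1flox/flox. *Smad5* (ENSMUSG00000021540, chromosome 13, 56703010 to 56742377) was above the floor in all 6, with 7.13, 302 and 163 normalized counts in Trf1+/+ against 26.6, 40.4 and 174 in Trf1flox/flox. The log2 fold changes were 1.27 for *Smad1* and -0.34 for *Smad5*, both smaller than their standard errors. The 95% intervals ran from -3.60 to 6.14 and from -4.29 to 3.61, so they include changes of many fold in either direction. Both signs turned when single libraries were left out.

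*Smad4* (ENSMUSG00000024515, chromosome 18, 73639009 to 73703780), the partner that both branches share, had 1.78, 526 and 73.9 normalized counts in Trf1+/+ against 98.0, 1.09 and 132 in Trf1flox/flox libraries. Each genotype held 1 library at the floor, replicate 1 with 2 reads and replicate 2 with 1 read, and the highest value was that of Trf1+/+ replicate 2. The log2 fold change was -0.66 (standard error 2.47). *Smad1* was at the floor in the same 2 libraries, and the Pearson correlation of the log2 values of *Smad1* and *Smad4* over the 6 libraries was 0.81, given as a description.

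Of the inhibitory Smads, *Smad7* (ENSMUSG00000025880, chromosome 18, 75367529 to 75395935) had 0, 53 and 0 reads in Trf1+/+ libraries and 223 or more in each Trf1flox/flox library. In normalized counts this was 0, 43.9 and 0 against 490, 254 and 154, so the lowest Trf1flox/flox library lay above the highest Trf1+/+ library and the groups did not overlap. *Smad7* reached the filter through the Trf1flox/flox libraries, Trf1+/+ replicate 2 being the only control with 10 or more normalized counts. The lack of overlap and the p of *Smad7* are therefore not independent of the filter. The log2 fold change was 6.24 (standard error 1.69, 95% interval 2.13 to 10.34), the largest of the 7 tested members. Its unadjusted p in limma was 0.00973, the 167th smallest of the 9966 genes, and its adjusted p 0.580. The exact two-sided permutation p was 0.1, as for *Smad2*. With limma's prior variance following the mean level, the unadjusted limma p of *Smad7* was 0.0246. The adjusted p of *Smad7* lay between 0.190 and 1.000 over all settings run with limma, edgeR and DESeq2. With each library left out in turn the log2 fold change lay between 5.32 and 8.07, the lowest being that without Trf1+/+ replicate 1 or 3, the controls with no read. The size depended on the scale, with 4.67 at a pseudocount of 5, 4.24 in edgeR (unadjusted p in edgeR 0.114) and 4.34 in DESeq2.

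*Smad6* (ENSMUSG00000036867, chromosome 9, 63953076 to 64022059), the other inhibitory Smad, had 0, 0 and 4 reads in Trf1+/+ and 4, 273 and 5 reads in Trf1flox/flox libraries. The 298 normalized counts of Trf1flox/flox replicate 2 stood alone, and the other 5 libraries held at most 3.94. The exact two-sided permutation p was 0.3. *Smad6* and *Smad3* were therefore high in different Trf1flox/flox libraries, *Smad6* in replicate 2 and *Smad3* in replicates 1 and 3.

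The ligase genes differed in how often they were detected. *Smurf2* (ENSMUSG00000018363, chromosome 11, 106820066 to 106920715) had 354, 85.3 and 417 normalized counts in Trf1+/+ against 174, 181 and 134 in Trf1flox/flox libraries, between 103 and 423 reads. It had the highest mean normalized count of the 10 genes and was the steadiest member in Trf1flox/flox libraries, with 163 ± 25.2 (SD, n = 3) against 285 ± 176 (SD, n = 3) in Trf1+/+. Trf1+/+ replicate 2 lay below, and replicates 1 and 3 above, every Trf1flox/flox library, and the log2 fold change was -0.52 (standard error 0.93). *Smurf1* (ENSMUSG00000038780, chromosome 5, 144876495 to 144965847) was listed at 0 in 4 libraries, had 1 read in Trf1+/+ replicate 3 and 98 reads (67.5 normalized counts) in Trf1flox/flox replicate 3. With 5 of 6 libraries at the floor, no difference in *Smurf1* was detectable.

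*Zfyve9* (ENSMUSG00000034557, chromosome 4, 108637466 to 108780798) had 0.891, 198 and 0 normalized counts in Trf1+/+ against 19.8, 160 and 130 in Trf1flox/flox libraries. The highest value was that of Trf1+/+ replicate 2, and the other controls were at the floor with 1 and 0 reads. The log2 fold change was 3.39 (standard error 2.21), with an adjusted p of 0.996 in limma. Without Trf1+/+ replicate 2 it was 5.79 with an unadjusted limma p of 0.00628 (adjusted p = 0.324), and in edgeR and DESeq2, with all libraries, it was 0.55 and 0.63. An exon of *Zfyve9* overlaps one of *3110021N24Rik* on the opposite strand, and in libraries that do not keep strand the reads of the 2 genes cannot be told apart there. Small RNA genes also lie on exons of *Smad5* (*Gm27301*) and *Smurf2* (*Gm27322*).

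**Figure D2:**
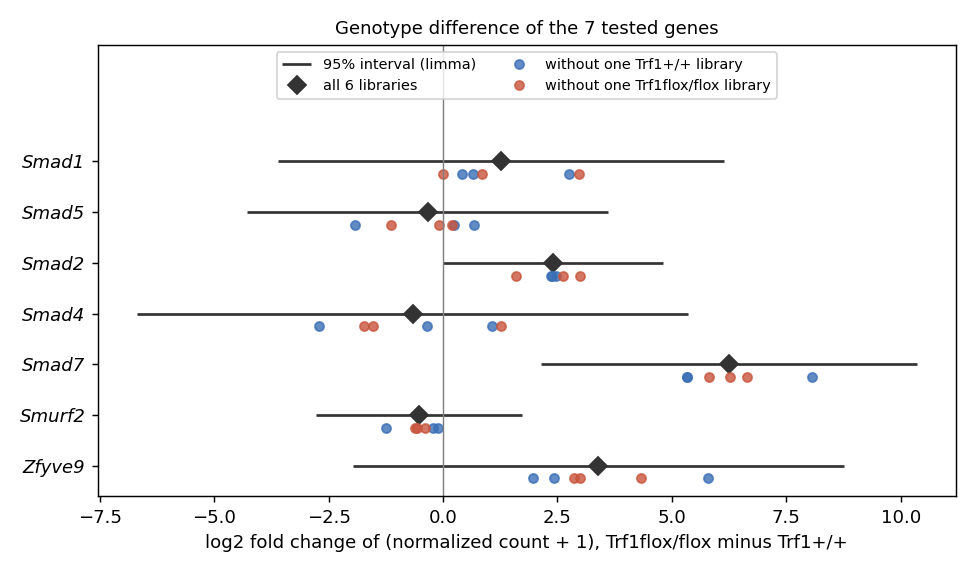
Log2 fold changes of the 7 tested members on the log2(normalized count + 1) scale, Trf1flox/flox minus Trf1+/+, as diamonds with 95% limma intervals, and as points the same value with 1 library left out. The intervals of *Smad2* and *Smad7* lie above 0 and their left-out values stay positive, while the points of *Smad1*, *Smad4* and *Smad5* fall on both sides of 0.

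Many member values rested on few reads. Of the 30 member values in Trf1+/+ libraries, 15 (50.0%) were at or under the floor, against 26.9% of all genes' values, and of the 30 values in Trf1flox/flox libraries 5 (16.7%) were, against 18.5% of all genes' values. By library, 7, 3 and 5 of the 10 members were at the floor in Trf1+/+ replicates 1, 2 and 3, and 1, 4 and 0 in Trf1flox/flox replicates 1, 2 and 3. Across all listed genes the share at the floor was 43.8%, 20.0% and 16.7% in Trf1+/+ and 17.3%, 29.8% and 8.37% in Trf1flox/flox libraries. Without the library labelled Trf1+/+ replicate 1, 8 of 20 control values (40.0%) were at the floor, against 18.4% of all genes' values. No test was made of these counts, and at this depth a member at the floor is not shown to be absent.

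Levels of different genes were compared per kilobase of exon, using the merged exons of GENCODE M21. Averaged over the 6 libraries, the order from the highest level per kilobase was *Smad4*, *Smurf2*, *Smad7*, *Smad6*, *Smad5*, *Zfyve9*, *Smad3*, *Smad2*, *Smad1* and *Smurf1*, from 37.4 to 1.80 normalized counts per kb. No neighbors in this order differed by more than the larger of their standard deviations over the libraries, which for *Smad4* was 53.0 normalized counts per kb. By the median, which 1 high library moves less, *Smurf2* (28.8 per kb), *Smad4* (23.1) and *Smad7* (21.9) led and *Smad3* (0.169) and *Smurf1* (0) were last. The order differed between the genotypes. In Trf1+/+ libraries the highest means were those of *Smad4* (54.0 per kb), *Smurf2* (46.3) and *Smad5* (21.2), with *Smad7* at 3.24 and *Smad6* at 0.410. In Trf1flox/flox libraries they were those of *Smad7* (66.1 per kb), *Smad6* (31.7, from 1 library) and *Smurf2* (26.5).

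The member that led differed by library. Of the summed level per kilobase of the 10 genes, *Smurf2* made up 93.9% in the library labelled Trf1+/+ replicate 1 and 59.9% in replicate 3, and *Smad4* made up 56.8% in replicate 2. In Trf1flox/flox libraries *Smad7* led in replicate 1 (42.6%), *Smad6* in replicate 2 (39.4%) and *Smad4* in replicate 3 (21.8%). The inhibitory *Smad6* and *Smad7* together made up 0%, 3.89% and 1.09% of the summed level in Trf1+/+ and 43.0%, 63.1% and 21.5% in Trf1flox/flox replicates 1, 2 and 3, so the genotypes did not overlap in this share. *Smad2* and *Smad3* together made up 3.08%, 0.665% and 1.45% in Trf1+/+ and 24.8%, 11.4% and 6.27% in Trf1flox/flox libraries, again without overlap. The shares of *Smad1* and *Smad5* together overlapped, with 2.04%, 20.8% and 19.8% against 9.61%, 2.38% and 18.2%. These shares were formed after the values were known, they rest on the same reads as the single genes, and no test was made of them. Both pairs without overlap hold a gene whose groups did not overlap by itself, *Smad7* and *Smad2*. How often other pairs of genes separate was not taken, so these separations are not further results.

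**Figure D3:**
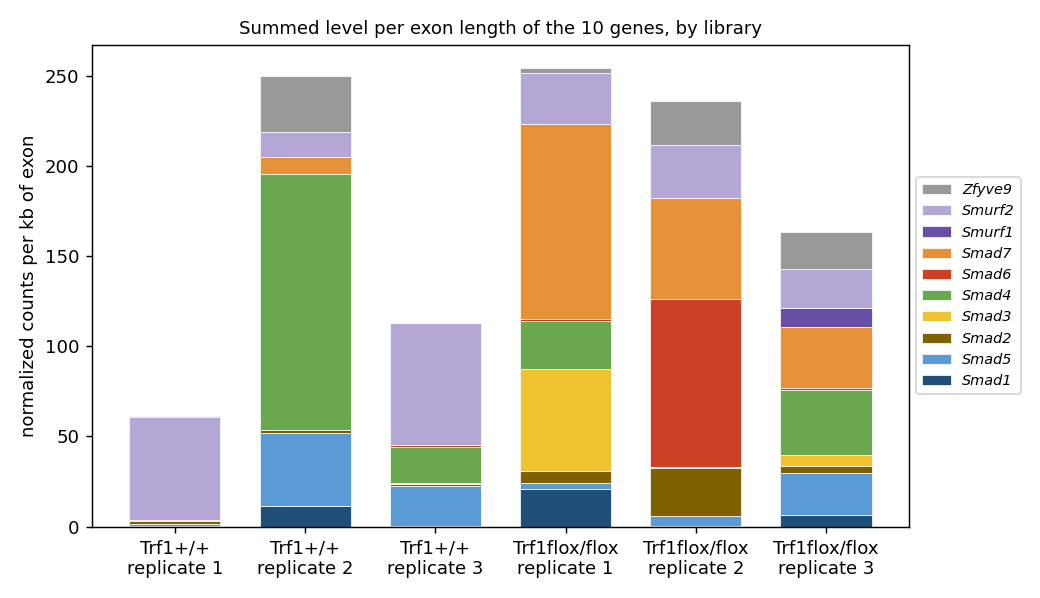
Stacked bars of the 10 members' normalized counts per kb of exon in each of the 6 libraries, with 1 color per gene. The sum runs from 61.1 in the library labelled Trf1+/+ replicate 1 to 255 in Trf1flox/flox replicate 1, and *Smad7* (orange) is visible in all 3 Trf1flox/flox bars and as a thin band in 1 Trf1+/+ bar.

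The log2 values of *Smurf2* and *Smad7*, the member with the highest mean count and the one with the smallest limma p, were compared over the 6 libraries with those of all tested genes by Pearson correlation, as a description. Those most like *Smurf2* were *Ppp5c* (0.97), *Mindy3* (0.95) and *Mdm4* (0.95), which encode a phosphatase, a deubiquitinase and an inhibitor of p53. The genes most like *Smad7* were *Akt2* (0.998), *L3hypdh* (0.996) and *Fer* (0.993), and 60 genes had a correlation above 0.95 with it, against 3 for *Smurf2*. *Akt2*, a protein kinase gene, had 0.891, 60.5 and 0.985 normalized counts in Trf1+/+ against 392, 346 and 193 in Trf1flox/flox libraries, low in the same 2 control libraries as *Smad7*. With 6 libraries, many genes share such an order. Between the members themselves, correlations ran from -0.92 (*Smurf2* and *Zfyve9*) to 0.82 (*Smad7* and *Zfyve9*), and *Smad2* and *Smad7* had 0.71.

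The rest of the pathway was taken from hand-written lists. None of its genes had an adjusted p under 0.05 in limma. As with the members, a gene high in a single genotype can pass the filter, so no count below stands for a whole list. Of 34 other Smad regulators 28 were tested, 20 with a positive and 8 with a negative log2 fold change, with a median of 0.26 beside 0.20 over all tested genes, of which 55.9% were positive. An unadjusted limma p under 0.05 was reached by 1 of the 28, beside 4.56% of all tested genes. This was *Rnf111*, a ligase gene whose product (Arkadia) degrades SMAD7 and the Smad corepressors, with 0, 5.80 and 122 normalized counts in Trf1+/+ against 369, 203 and 231 in Trf1flox/flox libraries, groups that did not overlap. Its log2 fold change was 4.78, but 3.17 without the library labelled Trf1+/+ replicate 1 and 2.61 in edgeR. With limma's prior variance following the mean level, the unadjusted limma p of *Rnf111* was 0.0628. *Usp4*, a deubiquitinase gene, had 277, 106 and 230 against 425, 1582 and 626, also without overlap (log2 fold change 1.98, standard error 0.91). Its unadjusted limma p was 0.0715, and 0.0385 with the prior variance following the mean level. *Nedd4l*, a ligase gene of the same family as the Smurfs, had 24.9, 134 and 442 against 935, 603 and 366, and the highest control lay above the lowest Trf1flox/flox library.

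Of 31 partners that act with Smads at DNA 18 were tested, 8 positive and 10 negative, with a median log2 fold change of -0.18, and none had an unadjusted limma p under 0.05. The median was -0.70, with 5 positive, without the library labelled Trf1+/+ replicate 1, and -0.0064, with 9 positive, under upper quartile scaling. The smallest p were those of *Zeb2*, a transcriptional repressor (log2 fold change -3.04, standard error 1.70), *Foxo1*, a forkhead factor (2.92, standard error 1.69, and 0.99 in edgeR), and *Jun*, an AP-1 subunit (-3.50, standard error 2.13). The highest values of *Zeb2* (229 normalized counts) and *Jun* (1093) were in the library labelled Trf1+/+ replicate 1, and both genes were at 0 in Trf1flox/flox replicate 2.

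Upstream, 10 of 15 receptor genes were tested, 8 positive and 2 negative, with a median log2 fold change of 1.14. Without the library labelled Trf1+/+ replicate 1 this median was 0.29 and 6 were positive, beside a median of -0.03 over all tested genes. *Acvr1*, a type I receptor of the BMP branch, had 0, 0.829 and 0 normalized counts in Trf1+/+ against 33.5, 197 and 64.8 in Trf1flox/flox libraries, without overlap. It had an unadjusted limma p of 0.000725 (adjusted p = 0.140), the smallest of these lists. *Acvr1* reached the filter through the Trf1flox/flox libraries alone, so its lack of overlap is not independent of the filter. *Tgfbr3*, a co-receptor that presents TGF-β2, had 0, 14.9 and 44.3 normalized counts in Trf1+/+ against 369, 416 and 27.6 in Trf1flox/flox libraries. The log2 fold change of *Acvr1b*, an activin receptor, was 2.61 (standard error 1.85), 1.16 in edgeR and 0.54 without the library labelled Trf1+/+ replicate 1. Of 33 ligands and ligand binding proteins 13 were tested, 9 positive and 4 negative. The median was 1.07, beside 0.20 over all tested genes, and none of the 13 had an unadjusted limma p under 0.05. Without the library labelled Trf1+/+ replicate 1 the median was 0.46, beside -0.03 over all tested genes, and 8 were positive. The smallest p were those of *Bmp7* (log2 fold change 3.70, standard error 2.30), a BMP made by the tubule, *Nog* (2.47, standard error 2.40), a BMP antagonist, and *Dcn* (2.09, standard error 2.37), a matrix proteoglycan that binds TGF-β. In edgeR these were 0.13, 2.69 and 0.48, and the highest *Bmp7* value, 529 normalized counts, was that of Trf1+/+ replicate 3.

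Downstream, 16 of 39 Smad target genes were tested, 13 positive and 3 negative, with a median log2 fold change of 1.30. The median was 0.29, with 11 positive, without the library labelled Trf1+/+ replicate 1. This list holds *Smad7* itself, which is already counted among the members. An unadjusted limma p under 0.05 was reached by 2 of the 16, beside 4.56% of all tested genes. These were *Smad7* and *Cdkn1a*, the cell cycle inhibitor p21, with 0, 306 and 0 normalized counts in the controls and 588, 346 and 240 in the Trf1flox/flox libraries. Its groups overlapped, and its log2 fold change was 5.76 (standard error 2.36) in limma and 1.84 in edgeR. *Klf10*, a TGF-β-inducible transcription factor, had 27.6, 4.14 and 20.7 normalized counts in Trf1+/+ against 157, 39.3 and 88.9 in Trf1flox/flox libraries, which did not overlap, with an unadjusted limma p of 0.0543. In *Klf10* the library labelled Trf1+/+ replicate 1 was the highest of the controls.

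**Figure D4:**
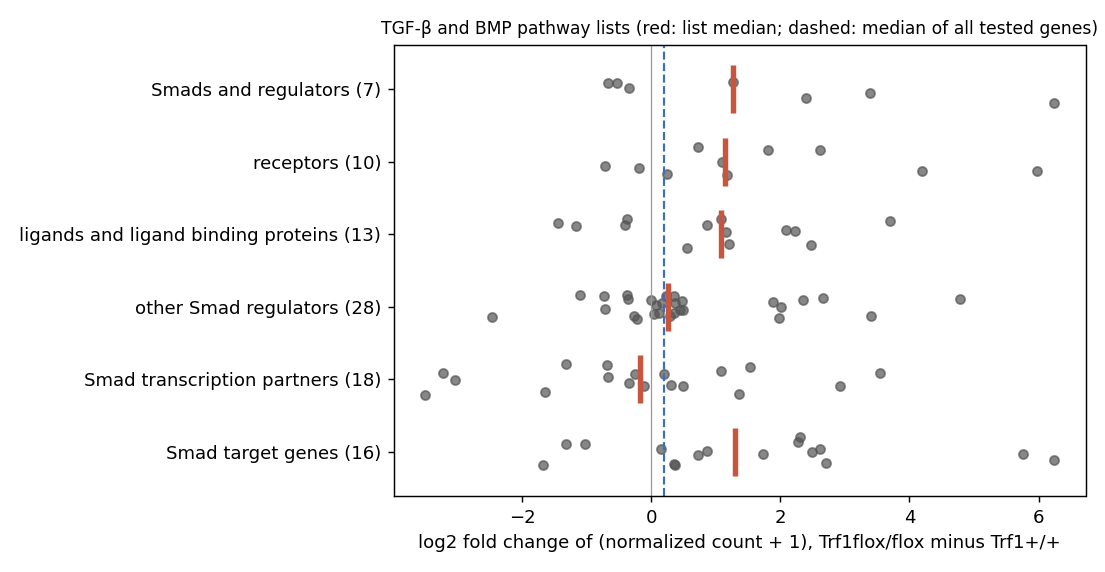
Log2 fold changes on the log2(normalized count + 1) scale, Trf1flox/flox minus Trf1+/+, of the tested genes of each hand-written list, 1 point per gene, with the number tested in brackets, red bars at the list medians and the dashed line at the median of all tested genes (0.20). The medians run from -0.18 for the transcription partners to 1.30 for the target genes, and each list holds genes on both sides of 0.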

How the data were processed

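RNA of 500 sorted kidney cells per library was sequenced for 3 Trf1+/+ and 3 Trf1flox/flox libraries (oligo(dT) priming, template switching, PCR, no strand kept, no molecular identifiers). The authors trimmed reads, aligned them with TopHat (v2.0.10) and Bowtie (v1.0.0) to GRCm38 with a stranded library setting (the submitters' processing notes list GRCm39), and counted GENCODE genes with HTSeq-count (v0.6.1). The strand setting of the counting is not given in the sources used here. The deposited values are a signal, normalized counts, that is reads divided by 1 size factor per library, and DESeq2 is among the tools of the submitters' processing notes. All values (100%) were whole multiples of the smallest value of their library within 0.01, so reads were recovered.

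Samples were grouped by genotype label and numbered in accession order. The labels do not tie libraries to mice, while the paper gives 3 mice in each group for this comparison. P-values measure the spread between these libraries, part of which may be technical. limma (3.58.1, R 4.3.3) was run on log2(normalized count + 1) over the 9966 genes that reached 10 normalized counts in 3 or more libraries, with no covariate, Benjamini-Hochberg adjustment and no intensity trend. Alternatives were pseudocounts of 0.5 and 5, no filter, upper quartile scaling, limma with an intensity trend, edgeR (4.0.16) and DESeq2 (1.42.0) on recovered reads, and each library left out. The fits were tested on simulated data, where limma, edgeR and DESeq2 recovered nearly all changed genes. DESeq2 had the largest share of false calls, above the limit first set, which was then raised. The simulated counts varied less within a group than these libraries, whose median within-group standard deviation was 2.17 log2 units. The simulation therefore checks the code and does not tell how many changes could be found in these libraries.

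Members and lists were chosen with earlier results of these data known. Named are all 10 members, *Terf1*, of each pathway list the 3 tested genes with the smallest limma p, the 3 genes most like the most abundant member and like the tested member with the smallest p, and of each marker list the most abundant gene and those at 0 throughout. Coordinates and exon lengths come from GENCODE M21 and promoters from RefSeq, both on GRCm38.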

Additional observations from a re-analysis of the deposited data

How the results depend on the processing

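Under no setting did a member have an adjusted p under 0.05. DESeq2 placed 58 genes of all tested there, where limma placed 0. At an unadjusted p under 0.05 edgeR placed 196 genes and limma 454, and between 322 and 829 with each library left out, the highest number without Trf1+/+ replicate 3. The count of tested members at an unadjusted p under 0.05 was 2. It was 1, *Smad7*, with a pseudocount of 5, without the filter, with the intensity trend and with DESeq2, it was 0 with edgeR with and without the filter (the latter chosen after seeing the data), and between 1 and 2 with each library left out. Without Trf1+/+ replicate 2, *Smad7* and *Zfyve9* were the 2. The count of members whose groups did not overlap was 2, and with 1 library left out it ranged from 2 to 4, being 4 without Trf1+/+ replicate 2. The share over all tested genes was not taken with 1 library left out. Groups of fewer libraries separate more often by order alone, so the 4 is not a result about the members. The cause of the moved counts was not tested, beyond the smaller number of libraries.

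Log2 fold changes with each library left out in turn lay between -0.0074 and 2.98 for *Smad1*, between -1.93 and 0.68 for *Smad5*, between -2.72 and 1.26 for *Smad4* and between -3.38 and 0.15 for *Terf1*. The sign turned for *Smad1* without Trf1flox/flox replicate 1 (-0.0074), for *Smad5* without Trf1+/+ replicate 2 (0.68) or 3 (0.24) or Trf1flox/flox replicate 1 (0.20), for *Smad4* without Trf1+/+ replicate 2 (1.07) or Trf1flox/flox replicate 2 (1.26), and for *Terf1* without Trf1+/+ replicate 2 (0.15) or 3 (0.097). The signs of *Smad2*, *Smad7*, *Smurf2* and *Zfyve9* held under every setting run. Upper quartile scaling moved the median log2 fold change of all tested genes from 0.20 to 0.35. No paired analysis was possible because the labels give no replicate numbers that link the genotypes. At most 3 reads were behind 20 of the 60 member values, and *Smad3*, *Smad6* and *Smurf1*, with 10 normalized counts in fewer than 3 libraries, could not be tested in the filtered fits. In limma without the filter their unadjusted p were 0.134, 0.120 and 0.383. In edgeR without the filter they were 0.0501, 0.0845 and 0.0854, with adjusted p of 0.985 or more.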

Other observations

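*Smad4*, *Smad7* and *Smad2* lie in this order on chromosome 18, with 11 listed genes in the 1664 kb between *Smad4* and *Smad7* and 1, *Ctif*, in the 846 kb between *Smad7* and *Smad2*. Among the 12 genes between them, *Cxxc1*, which encodes a CpG-binding protein (GRCm38 chromosome 18, 74216124 to 74221496), had 0, 89.5 and 0 normalized counts in Trf1+/+ against 371, 262 and 84.1 in Trf1flox/flox libraries, at 0 in the same 2 control libraries as *Smad7* (log2 fold change 5.50). Trf1+/+ replicate 2 lay above Trf1flox/flox replicate 3 there. *Ctif* had 484, 29.8 and 0.985 normalized counts in Trf1+/+ against 3.44, 0 and 47.5 in Trf1flox/flox libraries. *Cxxc1* and *Ctif* were chosen after their values were seen.

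Beyond the tubule markers, the most abundant marker of each other list varied widely between libraries. *Hbb-bs*, a hemoglobin gene, ran from 8.91 to 4474 normalized counts in Trf1+/+ and from 54.6 to 22803 in Trf1flox/flox libraries, highest in replicate 3, the library with the only *Smurf1* reads above the floor. *Cd74*, of antigen-presenting leukocytes, ran from 0 to 903 and from 0 to 2513. *Ehd3*, the most abundant of the 2 endothelial markers listed, had 288 in Trf1+/+ replicate 2, 295 in Trf1flox/flox replicate 2 and at most 1 read in the other 4 libraries. *Plce1*, the podocyte marker listed, had at most 42.1, *Dcn*, the most abundant fibroblast marker, at most 97.3, and *C1qb*, of macrophages, was listed at 0 throughout. *Kap* led the proximal tubule markers (5058 to 71943 normalized counts) and *Umod* those of the loop and distal tubule (21896 to 80777).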
